A study of Mus musculus with 30 samples.

Results

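The transcriptome of B16-IFNA9 tumors was compared with that of B16-GFP control tumors, gene by gene, over 20 of the 30 tumors of the series. The comparison takes the 10 tumors labelled B16-IFNA9 and the 10 labelled B16-GFP, and every gene whose mean over these 20 tumors reached 10 counts, which 15841 of the 39676 listed genes had. The description is centred on gene programs other than the classical interferon-stimulated genes (ISGs).

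B16-F10 is a mouse melanoma line. In the study it was transduced in sequence with retroviral vectors and grown under the skin of C57BL/6 mice, which have an intact immune system, and RNA was taken from whole tumors on day 8. B16-IFNA9 cells carry murine IFNα9 followed by enhanced GFP on 1 transcript driven by a viral long terminal repeat, and B16-GFP cells carry the same vector without an interferon. Cells of both tumor types also carry glycoprotein B of herpes simplex virus with cyan fluorescent protein, and firefly luciferase with puromycin resistance, so neither type is unmodified B16-F10. The labels give each tumor a biological replicate number and no age, sex or cage, and the tissue of every sample as whole tumor.

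IFNα9 is a type I interferon, and all type I interferons signal through 1 receptor that nearly every nucleated cell carries, made of the chains Ifnar1 and Ifnar2. Besides ISGs that restrict viruses, type I interferons are known to act on natural killer (NK) cells, T cells and dendritic cells (DCs), on endothelial cells of growing vessels and on cell growth. A whole tumor holds cancer cells, vessels, connective tissue and infiltrating leukocytes together, so its RNA gives the sum over all of them. Lower RNA for a cell type's genes can come from fewer such cells or from less RNA per cell, and these cannot be told apart in these data.

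Depth was alike in both groups, with 14598517 to 18669856 counts in a GFP tumor and 15312860 to 18528910 in an IFNA9 tumor. Ifna9 (chr4:88591813-88592385, GRCm38) had no count in any GFP tumor, which allows up to 0.018 counts per 1000000 (CPM) over that group and covers counting error only. In IFNA9 tumors it measured 3.22 to 9.1 CPM (median 5.05), so the transgene followed the labels in all 20 tumors, although 25.8% of the 50-base stretches of its transcript occur in other genes. The melanocyte genes Mitf and Tyrp1 were present throughout, at 303 to 712 CPM and 2788 to 20565 CPM over the 20 tumors, and Dct, Pmel, Mlana and Sox10 were not analysed here. Of 140 tested genes on the list of classical ISGs, 138 were higher in IFNA9 tumors, with Ifit1 at 13.9 to 81.8 CPM (median 35.9) in GFP and 257 to 388 CPM (median 331) in IFNA9 tumors. GFP tumor 7 stood apart: it had the lowest score of the 10 GFP tumors for 36 of 53 gene lists and the highest for 13, where a score averages log2 CPM over a list's members, and its scaling factor was 0.765 against 0.880 to 1.07 in the others. Among IFNA9 tumors, tumor 5 or tumor 10 had the lowest score for 37 of the lists.

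The 2 tumor types differed over a large part of the transcriptome. The quasi-likelihood test of edgeR, Benjamini-Hochberg adjusted over all genes tested, called 3883 genes (24.5% of those tested) higher and 4158 (26.2%) lower in IFNA9 tumors at an adjusted p under 0.05. These are the differentially expressed genes (DEGs) below, 50.8% of those tested. Of the DEGs, 1197 were at least 2-fold higher and 726 at least 2-fold lower. Every IFNA9 tumor was above every GFP tumor for 720 genes (4.55%) and below every GFP tumor for 525 (3.31%). The median log2 fold change over all genes tested was -0.0012. Without GFP tumor 7, 3784 genes were higher and 4016 lower. Without IFNA9 tumor 10, 877 genes lay below every GFP tumor without overlap, and without IFNA9 tumor 5, 1043 lay above and 807 below. Log2 fold changes are given as IFNA9 over GFP, ± SE, from 10 tumors of each type.

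Gene lists were described by how many of their tested members were DEGs, to be read against 24.5% higher and 26.2% lower over all genes. A gene whose mean was under 10 counts in 1 group and that reached the minimum through the other was favoured to differ by the filter, which concerned 428 genes through the IFNA9 and 236 through the GFP tumors. Without them, higher DEGs were 13 of 13 NK cell genes, 14 of 15 T cell genes, 6 of 6 cytotoxic effector genes and 1 of 8 B cell and plasma cell genes, and in any other list at most 2 members had passed this way. Of the named genes, 16 passed through the IFNA9 and 4 through the GFP tumors alone. The former include the transgene Ifna9. Their levels are a description, and no fold change or p is given for them. List medians, list scores and counts without overlap do include such members. The plot of the share of DEGs in each list shows 3 sets of programs: lymphocyte, monocyte and antigen presentation genes were higher, resident macrophage and fibrillar matrix genes were below the shares over all genes in both directions, and vessel, mitochondrial, ribosomal and cell growth genes were lower.

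**Figure D1:**
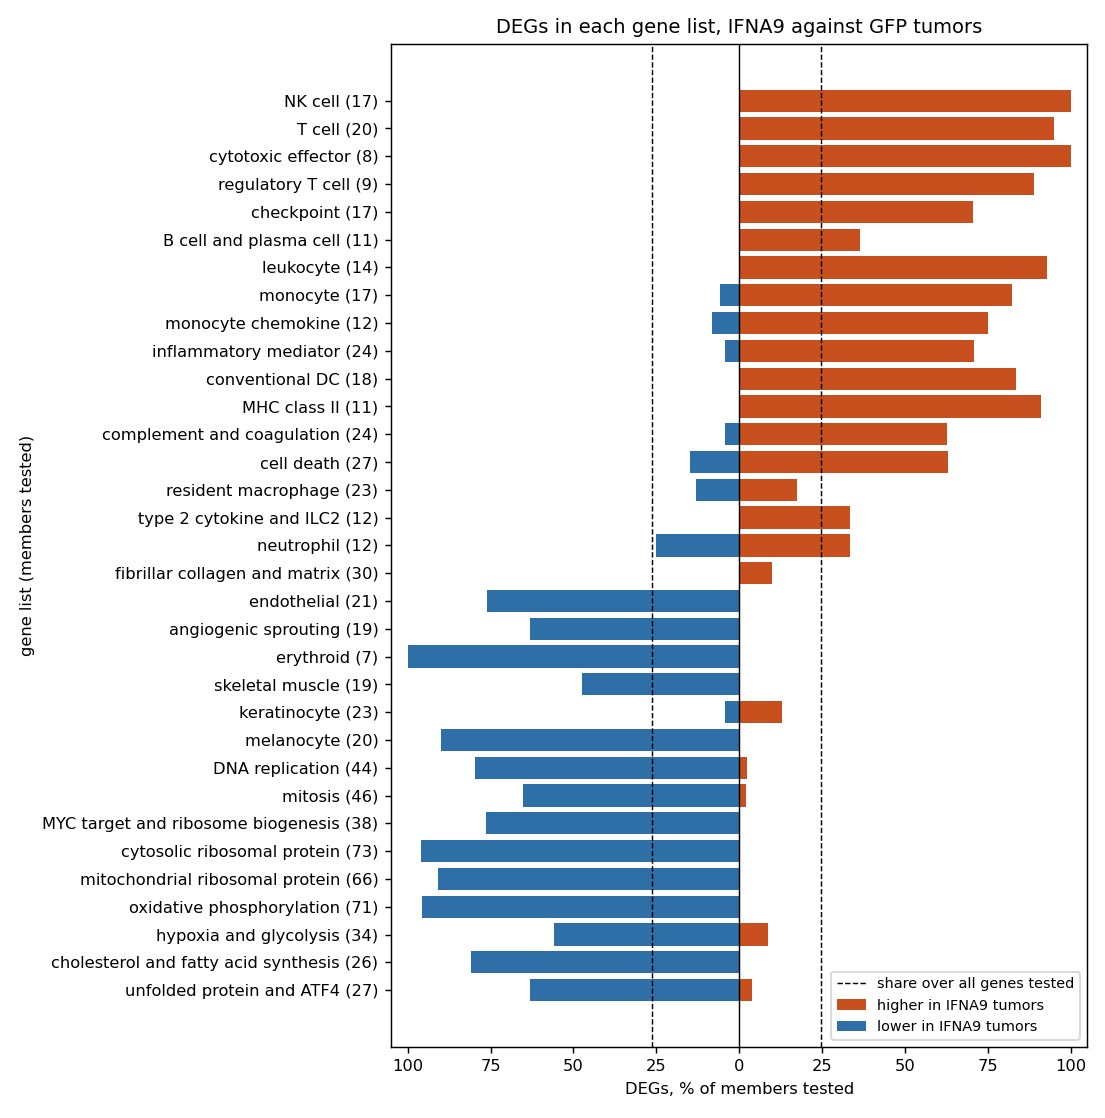
Share of tested members of each gene list that were DEGs, in percent, higher (right) or lower (left) in IFNA9 than in GFP tumors. Dashed lines mark the shares over all genes tested, 24.5% higher and 26.2% lower, and the number of members tested stands beside each list. NK cell genes reach 100% higher and oxidative phosphorylation genes 95.8% lower.

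NK cell genes rose together. All 17 tested NK cell genes were DEGs and higher, none of them overlapped between the groups, and their median log2 fold change was 3.24. The 4 that passed through the IFNA9 tumors alone are part of these counts and medians. Ncr1 (chr7:4337724-4345164), which encodes the activating receptor NKp46, measured 0.269 to 2.26 CPM (median 0.749) in GFP tumors and 5.18 to 24.8 CPM (median 16.2) in IFNA9 tumors. The lowest IFNA9 tumor was above the highest GFP tumor, and the log2 fold change was 4.15 ± 0.34 (quasi-likelihood test of edgeR, Benjamini-Hochberg adjusted p = 5.87e-09). The other members with the largest changes were receptors of the Ly49 and NKR-P1 families. Klra8 rose by 3.96 ± 0.39, Klra7 by 3.90 ± 0.30 and Klra9 by 3.55 ± 0.38 on the log2 scale. Klra4, at 0.163 to 1.05 CPM (median 0.441) in GFP and 3.79 to 14.8 CPM (median 7.74) in IFNA9 tumors, and Klrb1f, at 0 to 1.18 CPM (median 0.463) in GFP and 3.04 to 11.4 CPM (median 6.74) in IFNA9 tumors, passed through the IFNA9 tumors alone. Of the 50-base stretches of their transcripts, 33.1% in Klra8, 31.5% in Klra9 and 12.3% in Klra7 also occur in transcripts of another gene, so reads could be split between members of this family. Leaving out GFP tumor 7 kept all 17 calls, with a median of 3.13.

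**Figure D2:**
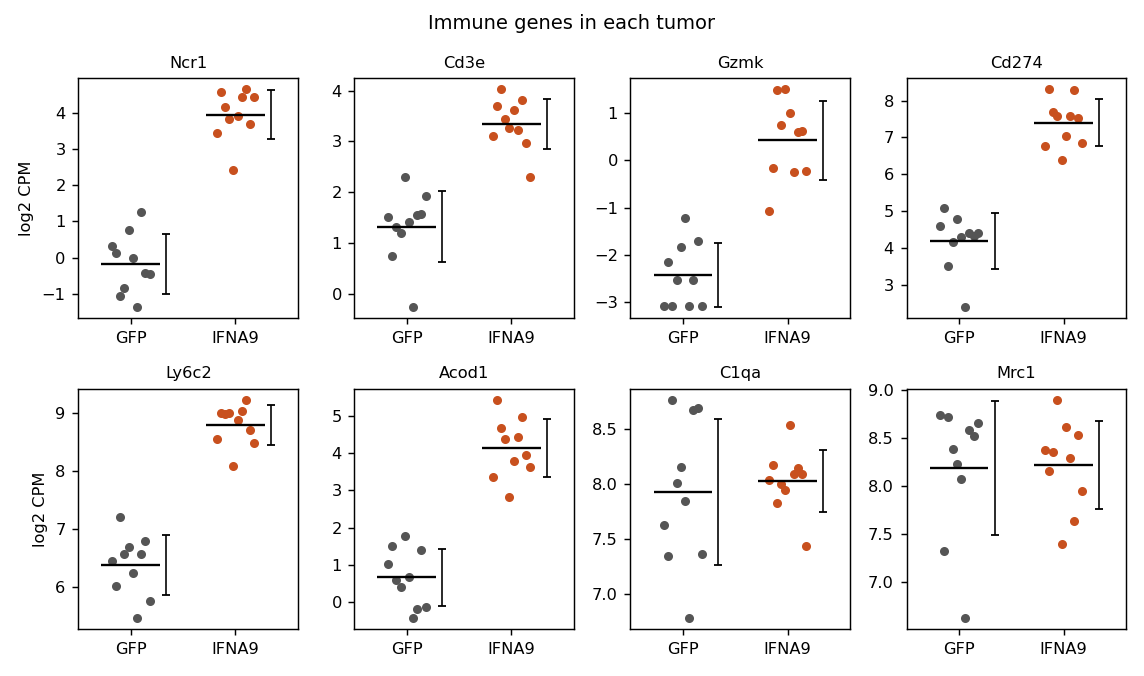
Log2 CPM (y axis, prior count 2) of 8 immune genes in each of the 10 GFP and 10 IFNA9 tumors. Points are tumors, the horizontal line is the mean of a group and the bar beside it ± 1 SD. Ncr1, Cd274, Ly6c2 and Acod1 do not overlap between the groups, nor does Gzmk, which passed the minimum of 10 counts through the IFNA9 tumors alone, Cd3e overlaps slightly, and C1qa and Mrc1 overlap widely.

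The promoters of NK cell genes were read for the interferon-stimulated response element (ISRE), the letters through which many genes are known to respond to type I interferon. Promoters were 300 bases from RefSeq (GRCm38.p6), 250 before and 50 after the most upstream start, and 10691 of the 15841 tested genes had one. The letters TTTC, any 2 bases and TTTC were found on either strand in 3.28% of these promoters. They were found in 46.8% of 109 promoters of classical ISGs and in 9.86% of 416 promoters of other genes that were higher without overlap. Of 15 NK cell genes with a promoter, 1 held it, Eomes, which encodes a T-box factor of NK cells and effector T cells and was singled out after its values were seen. Its level was 0.609 to 3.51 CPM (median 1.28) in GFP and 6.51 to 21.4 CPM (median 11) in IFNA9 tumors, without overlap. The 200 bases before its start, read 5′ to 3′ with the match in capitals, are shown because Eomes was the only NK cell gene with these letters in the window.
Eomes (chr9:118477989-118478188, plus strand): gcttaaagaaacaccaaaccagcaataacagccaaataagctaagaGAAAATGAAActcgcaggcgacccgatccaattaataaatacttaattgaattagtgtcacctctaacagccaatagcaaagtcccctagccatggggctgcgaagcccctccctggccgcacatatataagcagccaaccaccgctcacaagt

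A match of letters is a description and not a site of binding. The letters GGG, any 2 bases and TTTCC, which NF-κB is known to bind, were in 1.69% of all promoters and in 2.64% of those of genes outside the ISG list that were higher without overlap. An ISRE match overlapped a match of these letters in 3 promoters.

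T cell and cytotoxic genes were higher as well. Of 20 tested T cell genes 19 were DEGs, all higher (median 2.35 on the log2 scale), and all 8 tested cytotoxic effector genes were higher (median 2.64). These medians include 5 T cell genes and 2 cytotoxic effector genes that passed through the IFNA9 tumors alone. Cd3e, a chain of the T cell receptor complex, measured 0.716 to 4.83 CPM (median 2.64) in GFP and 4.8 to 16.2 CPM (median 10.1) in IFNA9 tumors. The groups touched only at their edges, and the log2 fold change was 2.00 ± 0.25. The CD8 co-receptor chain Cd8a rose by 2.99 ± 0.46 with overlap between the groups, and the other chain, Cd8b1, which passed through the IFNA9 tumors alone, was at 0.11 to 1.1 CPM (median 0.406) in GFP and 0.923 to 7.21 CPM (median 3.83) in IFNA9 tumors. Cd4 was the member that was not a DEG. It measured 0.448 to 45.2 CPM (median 2.9) in GFP and 5.23 to 16.4 CPM (median 13.3) in IFNA9 tumors, and the GFP maximum came from tumor 8 alone. Without GFP tumor 8 its log2 fold change moved from 0.68 to 1.99, with an adjusted p of 3.69e-05 by the same edgeR test. Gzmk, a granzyme of memory and effector T cells, was at 0 to 0.309 CPM (median 0.0548) in GFP and 0.356 to 2.72 CPM (median 1.41) in IFNA9 tumors. It passed through the IFNA9 tumors alone, as did Fasl, the death ligand that triggers Fas, at 0 to 0.823 CPM (median 0.372) in GFP and 2.03 to 7.41 CPM (median 3.52) in IFNA9 tumors. Nkg7, a protein of cytotoxic granules, rose by 3.01 ± 0.25 without overlap. Gzmb, Prf1 and Ifng were not analysed here.

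Checkpoint and regulatory genes moved in the same direction. Of 17 tested checkpoint genes 12 were higher and none lower (median 1.26). Cd274, which encodes PD-L1, was the most changed of them. It measured 5.1 to 34 CPM (median 20.4) in GFP and 84.1 to 316 CPM (median 189) in IFNA9 tumors, with no overlap and a log2 fold change of 3.19 ± 0.29 (quasi-likelihood test of edgeR, Benjamini-Hochberg adjusted p = 2.03e-08). Its receptor Pdcd1 (PD-1) rose by 1.49 ± 0.35, Ctla4 by 2.64 ± 0.50 and the receptor Lag3 by 1.56 ± 0.24. The exhaustion-associated factor Tox, which passed through the IFNA9 tumors alone, was at 0.107 to 0.823 CPM (median 0.552) in GFP and 1.23 to 4.81 CPM (median 3) in IFNA9 tumors. Ido1, a tryptophan-degrading enzyme, was not a DEG at 0 to 5.23 CPM (median 0.222) in GFP and 0.214 to 2.04 CPM (median 1.03) in IFNA9 tumors. Of 9 tested regulatory T cell genes 8 were higher, among them Foxp3, the lineage factor (2.35 ± 0.35), and Il2ra, the high-affinity interleukin-2 receptor chain (2.13 ± 0.28), with 31.5% of the exonic bases of Foxp3 also in exons of another annotated gene. B cell and plasma cell genes were less uniform, with 4 of 11 higher and none lower, and 3 of the 4 had passed through the IFNA9 tumors alone. Pax5, the B lineage factor, was one of them, at 0 to 0.433 CPM (median 0.221) in GFP and 0.587 to 2.34 CPM (median 1.24) in IFNA9 tumors, while Igkc, a light chain constant gene (-0.68 ± 0.62), and Cd79b, a chain of the B cell receptor (-0.22 ± 0.35), did not pass the test. Of 13 genes of stem-like and memory T cells 6 were higher and 2 lower (median 0.55). Xcl1, a chemokine that attracts XCR1 DCs, rose by 2.94 ± 0.32. S1pr1, the receptor for lymphocyte egress, fell with a log2 fold change of -0.76 ± 0.17, and its 22.4 to 66 CPM (median 44.2) in GFP tumors lay above the 0.716 to 4.83 CPM (median 2.64) of Cd3e. S1pr1 is also a gene of endothelium, and endothelial genes were lower in the same tumors. Its source was not tested.

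Monocyte genes rose together. Of 17 tested monocyte genes 14 were higher and 1 lower, 9 of the higher ones without overlap, and the median log2 fold change was 1.70. Ly6c2, the surface marker of classical inflammatory monocytes, measured 44 to 148 CPM (median 90.9) in GFP and 270 to 595 CPM (median 486) in IFNA9 tumors. The groups lay far apart, with a log2 fold change of 2.37 ± 0.19 (quasi-likelihood test of edgeR, Benjamini-Hochberg adjusted p = 3.58e-09). Cd300e, a receptor of non-classical monocytes, rose by 2.91 ± 0.32, Spn (CD43) by 2.39 ± 0.26 and Fcgr4, an activating Fc receptor, by 2.01 ± 0.19, all without overlap. Eno3, the muscle form of enolase, which is also on the skeletal muscle list, was the lower member (-0.96 ± 0.32). Fcgr4 held an ISRE match, and it is the monocyte list's only member with one, out of 13 with a promoter, so its 200 bases before the start are shown with the match in capitals. Of the 50-base stretches of Ly6c2 transcripts, 14.4% occur in other genes.
Fcgr4 (chr1:171018726-171018925, plus strand): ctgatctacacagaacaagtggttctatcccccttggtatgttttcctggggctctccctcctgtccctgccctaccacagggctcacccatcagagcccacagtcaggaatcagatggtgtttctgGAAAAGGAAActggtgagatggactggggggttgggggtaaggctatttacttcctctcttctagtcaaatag

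Chemokines and mediators of inflammation followed. Of 12 genes of the monocyte chemokine list 9 were higher and 1 lower (median 1.46). Ccl4, a chemokine that attracts monocytes and T cells, rose by 2.00 ± 0.19 without overlap, and Ccl2, the CCR2 ligand, measured 22.2 to 59.6 CPM (median 41.5) in GFP and 50.1 to 126 CPM (median 103) in IFNA9 tumors. Ccl2 overlapped slightly between the groups (1.22 ± 0.15). Ccl8 was the member of the list that fell (-0.79 ± 0.24, overlapping), and it was named after its value was seen. Of 24 inflammatory mediators 17 were higher and 1 lower (median 0.92). Acod1, which makes itaconate in activated macrophages, was at 0.627 to 3.29 CPM (median 1.44) in GFP and 6.94 to 42.9 CPM (median 18) in IFNA9 tumors, a log2 fold change of 3.56 ± 0.35 without overlap. Il18bp, the soluble antagonist of interleukin-18, rose by 3.06 ± 0.23 without overlap, and Nos2, the inducible nitric oxide synthase, by 2.39 ± 0.38 with overlap. Il6, Il1b and Ptgs2 were not DEGs, with Il6 at 0.04 ± 0.26 and Il1b at 0.14 ± 0.23 on the log2 scale. Socs3, a feedback inhibitor of the interleukin-6 family, was the lower member (-0.42 ± 0.17), a call lost when any 1 of 16 tumors was left out (-0.37 to -0.43).

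Resident macrophage genes did not share in this rise. Of 23 tested members 4 were higher and 3 lower, and the median log2 fold change was -0.05. C1qa, a chain of complement C1q made by tissue macrophages, measured 109.7 to 433 CPM (median 243) in GFP and 172 to 369.6 CPM (median 266) in IFNA9 tumors. Mrc1, the mannose receptor, measured 98.2 to 427 CPM (median 352) and 168 to 477 CPM (median 320). The groups overlapped over nearly their whole range for both, with log2 fold changes of -0.01 ± 0.21 and -0.03 ± 0.23, and Csf1r (-0.03 ± 0.21) and Vsig4 (-0.05 ± 0.32) did not pass the test. The members that rose were Timd4 and Axl, receptors for dying cells (1.57 ± 0.23 and 1.06 ± 0.17), with the transcription factor Maf (0.55 ± 0.15) and the hyaluronan receptor Lyve1 (0.63 ± 0.26), the last a call lost when any 1 of 12 tumors was left out (0.51 to 0.65). Those that fell were Cbr2 (-0.85 ± 0.24), the scavenger receptor Stab1 (-0.66 ± 0.19) and the lipid receptor Trem2 (-0.61 ± 0.20). Of 12 tested genes of type 2 immunity 4 were higher, the receptor genes Il17rb, Il1rl1 and Il13ra1 and the factor Rora, and none lower, with Il33 at -0.12 ± 0.17 and Il4 at -0.10 ± 0.21. The call of Il1rl1, the receptor of interleukin-33 (0.69 ± 0.26), was lost when any 1 of 9 tumors was left out (0.55 to 0.68). Of 20 genes of the interleukin-4 response list 10 were higher and 1 lower, led by Pdcd1lg2, the second PD-1 ligand (2.59 ± 0.33), and Alox15, a lipoxygenase (1.65 ± 0.33), and the eosinophil attractant Ccl24 was the lower one (-0.75 ± 0.29), a call lost when any 1 of 10 tumors was left out (-0.67 to -0.74).

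Neutrophil genes had shares of DEGs close to those over all genes, with 4 of 12 tested members higher and 3 lower. S100a9 and S100a8, the 2 chains of calprotectin, fell with log2 fold changes of -1.88 ± 0.35 and -1.14 ± 0.34, from levels of at most 14.5 CPM, while the growth factor receptor Csf3r rose by 1.25 ± 0.25. Of 7 tested neutrophil attractant genes 2 were higher and 2 lower, and without the 1 that passed through the IFNA9 tumors alone, 1 of 6 was higher. That gene was the cytokine gene Csf2, named after its value was seen, at 0 to 0.443 CPM (median 0.206) in GFP and 0.471 to 1.78 CPM (median 0.88) in IFNA9 tumors. Il1a, a chain of interleukin-1, rose by 0.80 ± 0.23. The chemokine genes Cxcl5 (-1.10 ± 0.30) and Cxcl2 (-0.92 ± 0.36) were lower, the latter a call lost when any 1 of 9 tumors was left out (-0.76 to -0.92).

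Genes of conventional DCs and of antigen presentation were higher. Of 18 tested conventional DC genes 15 were higher and none lower (median 0.90). Xcr1, the chemokine receptor that defines cross-presenting DCs, measured 0.804 to 5.43 CPM (median 2.5) in GFP and 7.9 to 15 CPM (median 10.3) in IFNA9 tumors. No IFNA9 tumor reached down to the GFP range (2.10 ± 0.27), and Irf8, the factor on which these DCs depend, rose by 1.73 ± 0.24, also without overlap. Of 11 tested MHC class II genes 10 were higher. H2-Aa, a class II chain, overlapped between the groups at 178 to 595 CPM (median 395) and 314 to 855 CPM (median 645), with a change of 0.68 ± 0.19, which was smaller than that of Ctss (1.27 ± 0.18), the protease that trims the invariant chain. Of 13 genes of CCR7 DCs 6 were higher and 1 lower, and without GFP tumor 7 4 were higher and 1 lower, and Ccr7 itself, the receptor for migration to lymph nodes, was not a DEG (0.55 ± 0.26) until the fit left out GFP tumor 5 (0.71) or GFP tumor 8 (0.75).

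Complement and cell death genes were mostly higher. Of 24 complement and coagulation genes 15 were higher and 1, the tissue factor gene F3, lower (median 0.88). C3, the central component, measured 140.1 to 1177 CPM (median 702) in GFP and 1060 to 2828 CPM (median 1260) in IFNA9 tumors, with a little overlap (1.18 ± 0.27). C2 (1.41 ± 0.10) and Cfb (1.18 ± 0.20), the proteases of the classical and alternative convertases, rose without overlap, but these neighbouring genes have 46.9% and 79.5% of their exonic bases in exons of other annotated genes, so their counts are uncertain. Of 27 cell death genes 17 were higher and 4 lower. The higher ones included Casp4, the inflammatory caspase that senses lipopolysaccharide (7.07 to 31 CPM (median 20.8) in GFP and 37.7 to 86.5 CPM (median 69.2) in IFNA9 tumors, without overlap), and Mlkl, the executor of necroptosis (1.25 ± 0.11, without overlap). The lower ones were Gsdmc and Gsdme, which form pores, Ninj1, which ruptures membranes, and Bax, the mitochondrial effector of apoptosis (-0.46 ± 0.18), the last a call lost when any 1 of 5 tumors was left out (-0.34 to -0.45).

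Vessel genes fell. Of 21 tested endothelial genes 16 were lower and none higher, 5 of them without overlap, and the median log2 fold change was -1.09. Aplnr (chr2:85136225-85139923), the apelin receptor of venous and sprouting endothelium, measured 20.1 to 62.4 CPM (median 38.4) in GFP and 5.35 to 11.6 CPM (median 8.13) in IFNA9 tumors. The highest IFNA9 tumor lay below the lowest GFP tumor, and the log2 fold change was -2.21 ± 0.20 (quasi-likelihood test of edgeR, Benjamini-Hochberg adjusted p = 1.56e-08). Esam and Cdh5, adhesion molecules of endothelial junctions, fell with changes of -1.94 ± 0.24 and -1.49 ± 0.20, Plvap, which makes the diaphragms of fenestrae, with -1.72 ± 0.24 and Emcn, a sialomucin of capillaries and veins, with -1.69 ± 0.16, all without overlap. The fall was not shared by every endothelial gene. Kdr, the main receptor for VEGF-A, measured 21.6 to 59.1 CPM (median 46.3) in GFP and 32.5 to 68.9 CPM (median 45.6) in IFNA9 tumors. Vwf, the clotting factor stored by endothelium, measured 23.5 to 46.5 CPM (median 39.1) and 25.7 to 49.3 CPM (median 34). Both overlapped widely, at 0.01 ± 0.16 and -0.07 ± 0.13 on the log2 scale, and Tek, the angiopoietin receptor (-0.15 ± 0.19), and Icam2 (0.17 ± 0.18) also did not pass the test, nor did Flt1, VEGF receptor 1 (-0.31 ± 0.16) until the fit left out IFNA9 tumor 2 (-0.39).

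**Figure D3:**
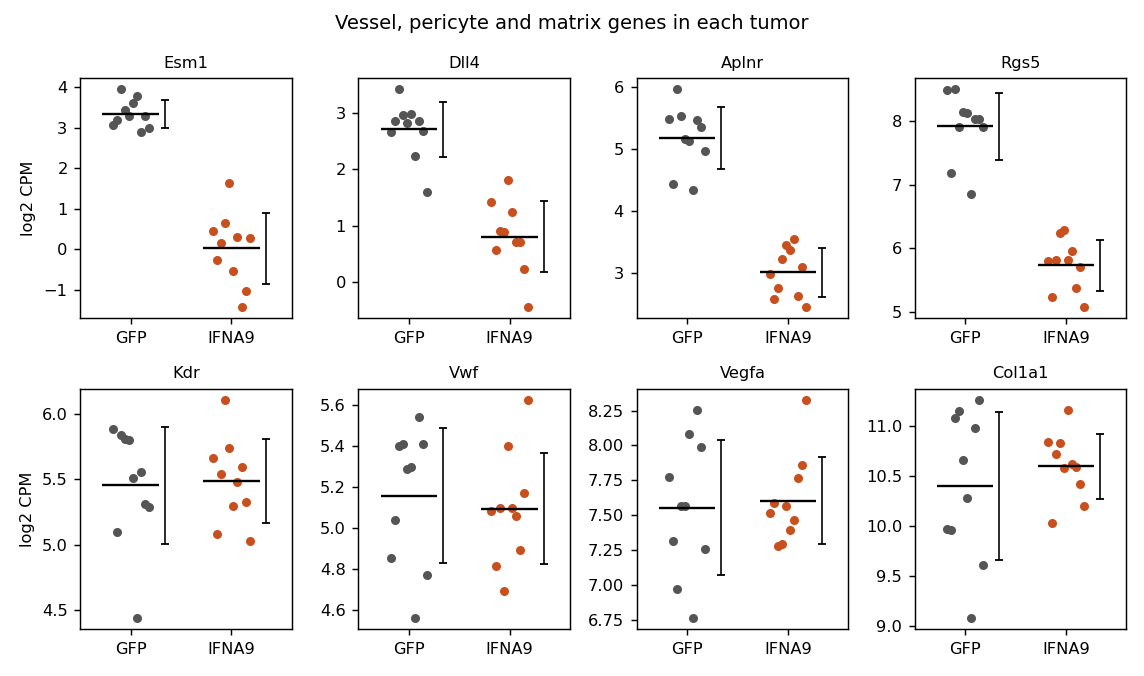
Log2 CPM (y axis, prior count 2) of 8 vessel, pericyte and matrix genes in each of the 10 GFP and 10 IFNA9 tumors. Points are tumors, the line is the mean and the bar ± 1 SD. Esm1, Aplnr and Rgs5 do not overlap between the groups, Dll4 overlaps slightly, and Kdr, Vwf, Vegfa and Col1a1 overlap widely.

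Genes of sprouting vessels also fell. Of 19 tested members 12 were lower and none higher (median -0.82). Esm1, a product of endothelial tip cells, measured 7.37 to 15.3 CPM (median 9.61) in GFP and 0.253 to 2.99 CPM (median 1.05) in IFNA9 tumors. Its log2 fold change of -3.24 ± 0.31 was the second largest fall among genes outside the ISG list that did not overlap (quasi-likelihood test of edgeR, Benjamini-Hochberg adjusted p = 4.5e-08). Dll4, the Notch ligand of tip cells, fell with -1.91 ± 0.25 and Apln, the ligand of Aplnr, with -1.55 ± 0.13, the latter without overlap. Vegfa, the growth factor that drives sprouting, was not a DEG, at 109 to 306 CPM (median 189.8) in GFP and 155 to 321 CPM (median 186) in IFNA9 tumors (0.01 ± 0.17). Rgs5, a marker of pericytes, the mural cells of capillaries, measured 115 to 360.2 CPM (median 261) in GFP and 33.6 to 77.8 CPM (median 55.8) in IFNA9 tumors. The groups did not overlap (-2.21 ± 0.19), and the pericyte channel genes Kcnj8 (-1.02 ± 0.27) and Abcc9 (-0.89 ± 0.22) were lower with overlap, whereas Pdgfrb, which fibroblasts also express, was not a DEG (-0.14 ± 0.16).

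Matrix genes, unlike vessel genes, held few DEGs. Of 30 tested genes of fibrillar collagens and matrix 3 were higher (Mfap4, Fmod and Postn) and none lower, with a median of 0.06. Without GFP tumor 7, 3 were higher and 3 lower. Col1a1, the main chain of type I collagen, measured 541 to 2452 CPM (median 1431) in GFP and 1049 to 2282 CPM (median 1554) in IFNA9 tumors, with complete overlap. Of 7 erythroid genes all 7 were lower (median -2.15), with Hba-a1, an α-globin gene, at 161 to 816 CPM (median 278) in GFP and 32.3 to 163 CPM (median 68.7) in IFNA9 tumors. The globin groups overlapped only at the edge, and 72.3% of the 50-base stretches of Hba-a1 occur in another gene, so the α-globin genes cannot be told from each other. Of 12 genes of leukocyte adhesion and venules 7 were higher and 1 lower, and without GFP tumor 7 5 were higher. Fut7, the enzyme that completes selectin ligands on leukocytes, passed through the IFNA9 tumors alone, at 0 to 0.548 CPM (median 0.236) in GFP and 0.747 to 2.98 CPM (median 1.06) in IFNA9 tumors. Selplg, the P-selectin ligand, rose by 1.34 ± 0.26, while P-selectin of endothelium and platelets, Selp, fell with -0.69 ± 0.28, a call lost when any 1 of 13 tumors was left out (-0.54 to -0.70). E-selectin, Sele, was not a DEG (0.30 ± 0.30).

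**Figure D4:**
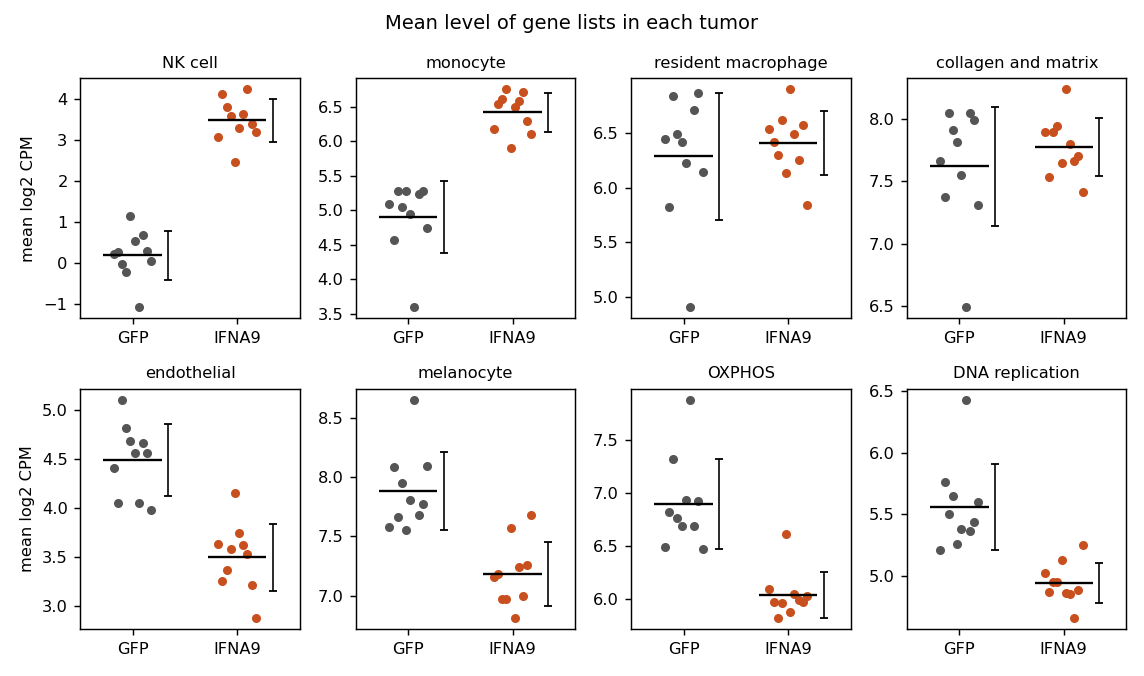
Mean log2 CPM over the tested members of 8 gene lists (y axis) in each GFP and IFNA9 tumor. Points are tumors, the line is the mean and the bar ± 1 SD. NK cell and monocyte scores do not overlap, resident macrophage and collagen scores overlap widely, and the other 4 lists are lower in 8 to 9 of the 10 IFNA9 tumors than in every GFP tumor.

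Pigment genes of the melanoma cells fell moderately. Of 20 tested melanocyte genes 18 were lower, with Cdh1 and Kit, the receptor of stem cell factor, not DEGs, the latter until the fit left out GFP tumor 2 (0.40), and the median log2 fold change was -0.71. Tyrp1, an enzyme of melanin synthesis, measured 6118 to 20565 CPM (median 7667) in GFP and 2788 to 7689 CPM (median 3758) in IFNA9 tumors. Its GFP maximum was tumor 7, and the groups overlapped through IFNA9 tumor 10 (-1.15 ± 0.21). Slc45a2 (-1.65 ± 0.27) and Slc24a5 (-1.64 ± 0.28), transporters of the melanosome, and Mitf, the lineage factor (-0.58 ± 0.12), were also lower, and 39.5% of the exonic bases of Slc24a5 lie in exons of other annotated genes. Without GFP tumor 7, 17 of the 20 were lower, with a median of -0.55. CATGTG, the core letters to which MITF is known to bind, were found in 46.7% of 15 melanocyte promoters against 9.34% of all promoters, which describes how these genes are built and not how they changed. The 200 bases before the starts of the pigment genes Tyrp1 and Slc24a5 are shown with these letters in capitals. Either strand was read, and the capitals are CATGTG in Tyrp1 and its reverse complement, CACATG, in Slc24a5.
Tyrp1 (chr4:80834013-80834212, plus strand): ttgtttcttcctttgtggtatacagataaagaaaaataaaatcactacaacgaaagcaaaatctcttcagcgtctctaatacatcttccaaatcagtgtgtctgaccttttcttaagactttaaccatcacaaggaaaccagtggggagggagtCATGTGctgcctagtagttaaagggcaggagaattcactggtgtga
Slc24a5 (chr2:125067927-125068126, plus strand): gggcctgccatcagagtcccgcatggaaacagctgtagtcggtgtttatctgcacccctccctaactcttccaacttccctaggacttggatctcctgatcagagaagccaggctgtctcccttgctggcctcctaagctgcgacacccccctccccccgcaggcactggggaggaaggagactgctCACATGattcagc

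Cell cycle genes fell unevenly. Of 44 tested DNA replication genes 35 were lower and 1, Pold3, higher (median -0.67), and of 46 mitosis genes 30 were lower and 1, Pttg1, higher (median -0.55). Rrm2, the inducible subunit of ribonucleotide reductase, measured 262 to 655 CPM (median 289) in GFP and 65.4 to 188 CPM (median 114) in IFNA9 tumors. Cdk1, the kinase that starts mitosis, measured 149.9 to 509 CPM (median 191) and 43.4 to 108 CPM (median 70.9). Neither overlapped between the groups, at -1.55 ± 0.18 and -1.56 ± 0.21. Mki67, the common marker of proliferating cells, was not a DEG: it measured 250 to 454 CPM (median 309.5) in GFP and 232 to 502 CPM (median 318) in IFNA9 tumors (0.06 ± 0.15), and the kinetochore genes Cenpf (0.02 ± 0.16) and Cenpe (-0.04 ± 0.16) were not DEGs either. Of 22 genes of CDK inhibitors and the p53 response 4 were higher and 4 lower (5 and 2 without GFP tumor 7, and 5 and 1 with scaling by library totals), with Cdkn1a, the inhibitor p21, at 0.12 ± 0.09.

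Genes of mitochondrial respiration fell almost without exception. Of 71 tested oxidative phosphorylation genes 68 were lower and none higher, 24 of them without overlap, and the median log2 fold change was -0.94. The exceptions were the testis form Cox6b2, Ndufv3 and the muscle form Cox6a2. Ndufv3 was called without GFP tumor 10 (-0.39) and Cox6a2 (-0.91 ± 0.39) without GFP tumor 1 (-0.97), GFP tumor 2 (-0.99), GFP tumor 4 (-0.97), GFP tumor 10 (-1.01) or IFNA9 tumor 5 (-1.31). Atp5o, a subunit of ATP synthase, measured 258 to 1098 CPM (median 342) in GFP and 116 to 209.8 CPM (median 143) in IFNA9 tumors. The groups did not overlap (-1.54 ± 0.22; quasi-likelihood test of edgeR, Benjamini-Hochberg adjusted p = 9.89e-06), although 47.9% of its exonic bases lie in exons of other annotated genes. Members of every respiratory complex fell: Ndufb6 of complex I (-1.36 ± 0.19), Sdhb of complex II (-1.29 ± 0.20), Uqcr11 of complex III (-1.57 ± 0.26) and Cox5a of complex IV (-1.07 ± 0.15), the last named after its value was seen. Without GFP tumor 7, 67 of the 71 were lower, with a median of -0.78. Genes encoded in mitochondrial DNA were not analysed here.

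Ribosomal genes fell in the same manner. Of 73 tested cytosolic ribosomal protein genes 70 were lower (median -0.71), and the exceptions were Rpl39l, Rpl4 and Rps6, the last (-0.31 ± 0.13) called without GFP tumor 1 (-0.34), GFP tumor 4 (-0.34), GFP tumor 5 (-0.33), GFP tumor 8 (-0.34) or IFNA9 tumor 10 (-0.34). Of 66 mitochondrial ribosomal protein genes 60 were lower (median -0.55), and of 38 MYC target and ribosome biogenesis genes 29 were lower and none higher (median -0.52). Mrpl44 measured 36.7 to 128 CPM (median 50.9) in GFP and 20.7 to 35.4 CPM (median 26.5) in IFNA9 tumors, without overlap. Nme1, a nucleotide kinase and a classical MYC target, fell with -1.22 ± 0.17, and Hspd1, the mitochondrial chaperonin HSP60, with -1.13 ± 0.15, both without overlap, and Myc itself fell with -0.52 ± 0.11. Many ribosomal protein genes have near-identical pseudogenes, and 60% of the 50-base stretches of Rplp1, 35.1% of those of Rpl29 and 39.7% of those of Hspd1 occur in other genes, so levels of single members are uncertain.

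**Figure D5:**
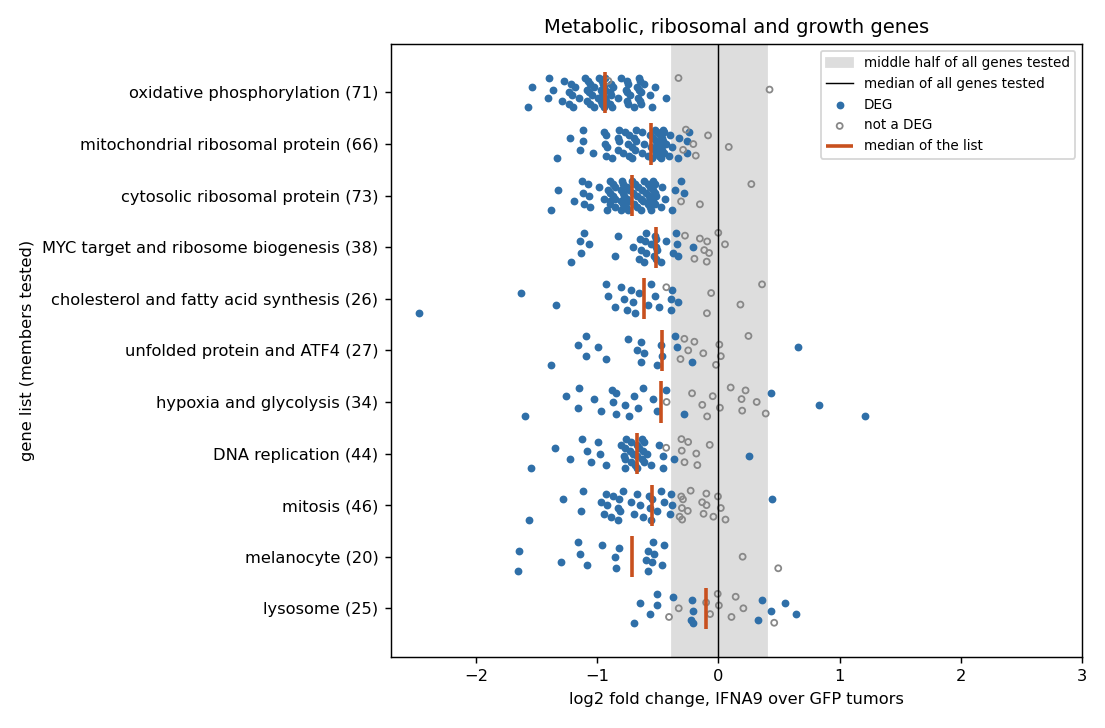
Log2 fold change, IFNA9 over GFP tumors (x axis), of each tested member of 11 gene lists. Filled points are DEGs, open points are not, the vertical bar is the median of a list, and the grey band holds the middle part of all genes tested, from -0.39 to 0.40. Oxidative phosphorylation has the lowest median at -0.94, and lysosome genes have a median of -0.10.

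Lipid, sugar and stress metabolism also moved. Of 26 tested genes of cholesterol and fatty acid synthesis 21 were lower and none higher (median -0.62). Insig1, the sterol-sensing partner of SCAP, measured 88.6 to 419.9 CPM (median 143) in GFP and 32.6 to 91.4 CPM (median 52) in IFNA9 tumors (-1.63 ± 0.23, overlapping slightly). Sqle, squalene epoxidase, fell with -0.91 ± 0.12 without overlap. Of 34 genes of hypoxia and glycolysis 19 were lower and 3 higher (median -0.47). The lactate exporter Slc16a3 (-1.59 ± 0.18) and hexokinase Hk1 (-1.16 ± 0.12) fell without overlap, and Eno2, the neuronal enolase, rose (1.21 ± 0.22), so the members of glycolysis did not move as 1 group. Of 27 genes of the unfolded protein response and ATF4 17 were lower and 1, Atf3, higher, with the ATF4 targets Trib3 (-1.38 ± 0.22) and Mthfd2 (-1.15 ± 0.17) lowest, and Hspa5, the chaperone BiP, at -0.34 ± 0.10. Of 26 genes of NRF2 and glutathione 13 were lower and 2 higher. Of 25 lysosome genes 5 were higher and 10 lower, and with scaling by library totals the counts turned round, to 7 higher and 4 lower.

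Outside the lists, the genes that rose most without overlap were not all genes of leukocytes. Nr5a1 (chr2:38692656-38714542), the steroidogenic nuclear receptor SF-1, was at 0 to 0.365 CPM (median 0.109) in GFP and 5.81 to 11.3 CPM (median 7.31) in IFNA9 tumors. This was 0 to 6 counts in a GFP tumor and 107 to 212 in an IFNA9 tumor. Cngb3, a subunit of the cyclic nucleotide channel of cone photoreceptors, was at 0 to 0.329 CPM (median 0) in GFP and 1.96 to 3.71 CPM (median 2.27) in IFNA9 tumors, and Nol4, a nucleolar protein gene, at 0 to 0.185 CPM (median 0) and 0.785 to 3.26 CPM (median 1.77). All 3 were at or near 0 in GFP tumors and present in all 10 IFNA9 tumors, so they reached the minimum of 10 counts through the IFNA9 tumors alone, and no fold change is given for them. Genes whose mean reached 10 counts in each group and that rose without overlap included Gm12185 (4.99 ± 0.40), Gm43302 (4.14 ± 0.36), the apolipoprotein L gene Apol10b (4.01 ± 0.35) and Olfr56 (3.98 ± 0.32). These are outside the list of classical ISGs by name only, and their relation to that program was not tested. All 50-base stretches of Gm43302 occur in transcripts of another gene, so its reads cannot be assigned to it. Ms4a4b, a membrane protein of T cells, rose by 3.78 ± 0.26, and Klre1, an NK receptor, by 3.82 ± 0.33. The lymphocyte GTPase gene Gimap7, at 0 to 1.48 CPM (median 0.354) in GFP and 4.4 to 13.2 CPM (median 8.06) in IFNA9 tumors, and Txk, a kinase of T and NK cells, at 0.224 to 0.715 CPM (median 0.616) in GFP and 4.11 to 14.5 CPM (median 6.64) in IFNA9 tumors, passed through the IFNA9 tumors alone.

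The genes that fell most without overlap were of mixed kinds. Col9a1, a collagen of cartilage and the eye, measured 2.85 to 17 CPM (median 5.71) in GFP and 0.19 to 0.951 CPM (median 0.514) in IFNA9 tumors, and passed through the GFP tumors alone. Rlbp1, a carrier of retinaldehyde, measured 8.01 to 44.2 CPM (median 12.6) and 0.628 to 3.79 CPM (median 1.41), without overlap (-3.22 ± 0.33; quasi-likelihood test of edgeR, Benjamini-Hochberg adjusted p = 1.39e-07). Adam12, a metalloprotease, stood at a higher level, at 109 to 230.4 CPM (median 141) in GFP and 22.4 to 54.2 CPM (median 34.7) in IFNA9 tumors (-2.03 ± 0.16). Others were Abca13 (-3.07 ± 0.24), Dhrs2 (-2.85 ± 0.27), Enho, which encodes the peptide adropin (-2.43 ± 0.30), and Tph2, the neuronal tryptophan hydroxylase (-2.29 ± 0.35). Slc22a14, at 1.05 to 6.62 CPM (median 2.19) in GFP and 0.0619 to 0.492 CPM (median 0.259) in IFNA9 tumors, the homeobox gene Rhox5, at 0.672 to 4.21 CPM (median 1.3) and 0 to 0.427 CPM (median 0.2), and the connexin Gjb1, at 1.11 to 10.5 CPM (median 1.7) and 0.176 to 1.01 CPM (median 0.315), passed through the GFP tumors alone. Of 17 imprinted growth genes 6 were lower, led by Dlk1 (-1.40 ± 0.32) and Mest (-0.98 ± 0.13), and 1, Meg3, was higher (0.88 ± 0.23).

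Genes of tissues next to a tumor were also counted. Of 19 skeletal muscle genes 9 were lower and none higher, with Acta1, the actin of muscle fibres, at 849.8 to 4951 CPM (median 1698) in GFP and 299 to 2808 CPM (median 764) in IFNA9 tumors. The groups overlapped, and the score over the list ran from 7.76 to 9.99 in GFP and from 6.82 to 9.60 in IFNA9 tumors. Of 23 keratinocyte genes 3 were higher and 1 lower (scores 5.32 to 8.32 and 6.58 to 8.64), of 14 adipocyte genes 2 were higher and none lower (scores 4.91 to 6.94 and 5.48 to 7.65), and of 12 genes of Schwann cells and nerve 2 were higher and 2 lower. Of 14 genes that all leukocytes express 13 were higher, with Ptprc (CD45) at 19.6 to 118 CPM (median 81.6) in GFP and 159.8 to 472 CPM (median 335) in IFNA9 tumors (2.15 ± 0.25). The part of these tissues in the changes of vessel and mitochondrial genes was not tested.

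The IFNA9 tumors were also compared with the 10 B16-IFNA4 tumors of the series, which secrete another IFNα subtype, in a fit of all 30 tumors, to see where the levels under the 2 subtypes differed. Values below are IFNA9 minus IFNA4 on the log2 scale. In this direct comparison 11.8% of all genes tested were higher and 6.27% lower in IFNA9 tumors. Vessel genes were lower in IFNA9 than in IFNA4 tumors for 9 of 21 members and higher for 1, Vwf. The difference was -1.22 ± 0.18 for Aplnr, -0.65 ± 0.18 for Cdh5 and -1.33 ± 0.16 for Kdr (quasi-likelihood test of edgeR, Benjamini-Hochberg adjusted p = 7.04e-07). Kdr measured 67.9 to 146 CPM in IFNA4 tumors, above the range of the GFP tumors, while the IFNA9 and GFP tumors overlapped. NK cell genes were lower in IFNA9 tumors for 11 of 17 members, although all 17 were higher than in GFP tumors, and monocyte genes for 9 of 17, with Cd300e at -2.01 ± 0.25. Resident macrophage genes were higher for 10 of 23 members and lower for none, with Vsig4, a complement receptor of resident macrophages, at 2.38 ± 0.39 and Mrc1 at 0.75 ± 0.21. Mitosis genes were higher for 44 of 46 members and lower for 1, Pttg1, with Mki67 at 0.88 ± 0.14, and DNA replication genes were higher for 31 of 44. None of the 71 oxidative phosphorylation genes differed by this test (median difference 3.956e-05). A p that misses the threshold does not show that the levels were the same. Skeletal muscle genes were lower in IFNA9 than in IFNA4 tumors for 17 of 19 members and higher for none (median -0.963). The part of muscle in the values for vessel and oxidative phosphorylation genes was not tested.

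Within the 10 IFNA9 tumors, scores of other lists were set against the score of 14 leukocyte genes, and likewise within the 10 GFP tumors, 12 relations in all that were chosen after the data were seen. In IFNA9 tumors the NK score followed the leukocyte score (Pearson's r = 0.904, permutation p = 0.00019, adjusted p = 0.00228; Spearman's rho = 0.903, permutation p = 0.00074, adjusted p = 0.00888). In the 8 tumors nearest the median r was 0.803. In GFP tumors the same relation did not pass after adjustment (Pearson's r = 0.701, permutation p = 0.0337, adjusted p = 0.0505; Spearman's rho = 0.503, permutation p = 0.144, adjusted p = 0.217), and r was 0.289 in the 8 tumors. Melanocyte, oxidative phosphorylation and DNA replication scores ran the other way in IFNA9 tumors by Pearson's r, while Spearman's rho did not pass after adjustment. For the melanocyte score the values were Pearson's r = -0.79, permutation p = 0.00648, adjusted p = 0.0156; Spearman's rho = -0.661, permutation p = 0.0436, adjusted p = 0.0956, and r was -0.514 in the 8 tumors. For oxidative phosphorylation they were Pearson's r = -0.763, permutation p = 0.00651, adjusted p = 0.0156; Spearman's rho = -0.636, permutation p = 0.0538, adjusted p = 0.0956, and r was -0.497. For DNA replication they were Pearson's r = -0.736, permutation p = 0.0128, adjusted p = 0.0219; Spearman's rho = -0.697, permutation p = 0.0297, adjusted p = 0.0956, and r was -0.475. In GFP tumors the melanocyte score also ran against the leukocyte score by Pearson's r (Pearson's r = -0.924, permutation p = 0.00103, adjusted p = 0.00618; Spearman's rho = -0.758, permutation p = 0.0153, adjusted p = 0.0918), with r = -0.674 in the 8 tumors nearest the median. For the DNA replication score in GFP tumors the values were Pearson's r = -0.888, permutation p = 0.00362, adjusted p = 0.0145; Spearman's rho = -0.661, permutation p = 0.044, adjusted p = 0.0956. In the 8 tumors nearest the median of the leukocyte score r was -0.346. Leaving out the tumors at the ends narrows the range of that score, and no r over 8 tumors was tested. The oxidative phosphorylation score did not pass in GFP tumors (Pearson's r = -0.579, permutation p = 0.0908, adjusted p = 0.0991; Spearman's rho = -0.152, permutation p = 0.683, adjusted p = 0.708), and r was 0.393 in the 8 tumors. The endothelial score followed the leukocyte score in GFP tumors by Pearson's r, and Spearman's rho did not pass after adjustment (Pearson's r = 0.739, permutation p = 0.0112, adjusted p = 0.0219; Spearman's rho = 0.636, permutation p = 0.0558, adjusted p = 0.0956), with r = 0.64 in the 8 tumors. In IFNA9 tumors its values were Pearson's r = -0.203, permutation p = 0.572, adjusted p = 0.572; Spearman's rho = -0.2, permutation p = 0.582, adjusted p = 0.698, and the difference between the groups was not tested. The cytosolic ribosomal protein score did not pass in GFP tumors (Pearson's r = -0.581, permutation p = 0.0832, adjusted p = 0.0991; Spearman's rho = -0.139, permutation p = 0.708, adjusted p = 0.708), and r was 0.59 in the 8 tumors. It did not pass in IFNA9 tumors either (Pearson's r = -0.561, permutation p = 0.0872, adjusted p = 0.0991; Spearman's rho = -0.248, permutation p = 0.493, adjusted p = 0.658), where r was -0.424 in the 8 tumors. Scores from 1 library share its depth and its scaling, and CPM values are shares of 1 total per library.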

How the data were processed

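Poly(A) RNA of 30 whole tumors was sequenced by the authors as stranded single-end libraries of 50 bases, read quality was checked with FastQC 0.11.3, and reads were mapped with HISAT2 2.0.4 (tools from the submitters' processing notes and the paper's methods). The deposited values are raw counts per gene and tumor made by the authors with summarizeOverlaps, and the overlap mode, strand setting and annotation are not given in the sources used here. Without a known strand setting, reads of overlapping genes on opposite strands cannot be told apart. The methods and the processing notes name different genome builds, so positions were taken by gene identifier from GENCODE M21 (GRCm38), which held 39495 of 39676 identifiers.

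The 20 tumors of the comparison were grouped by their labels. Genes whose mean reached 10 counts were tested with edgeR 4.0.16 in R 4.3.3 (TMM scaling, quasi-likelihood test, Benjamini-Hochberg adjustment, threshold 0.05), and DESeq2 1.42.0 was an alternative. The SE of a log2 fold change is its size divided by the square root of the F statistic. CPM values were scaled by TMM, and log2 CPM used a prior count of 2. The test was tried on simulated counts with known changes in a small part of the genes. The share of DEGs in these tumors was far larger, so the trial gives no error rate for them. Replicates differed by far more than sampling noise, with a lowest chi-square per gene of 21.9 in GFP and 14.1 in IFNA9 tumors over 45 pairs each. The labels call them biological replicates and do not say more, so p-values measure the spread between these tumors. By the paper's methods, all tumors of a type were grown from the same transduced and sorted cell line. Other differences between the lines therefore cannot be told apart from the interferon in these data.

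The members and the gene lists were chosen with earlier results of these data known. Genes were named by a rule: the first gene of each list, up to 6 DEGs per list with the largest change among members with a mean of at least 1 CPM in either group, the 20 largest rises and falls without overlap outside the ISG list, the transgene, and members that were not DEGs. Atf3, Ccl24, Ccl8, Cox5a, Csf2, Eomes, F3, Gsdmc, Gsdme, Maf, Ninj1, Pold3, Pttg1 and Socs3 were named in addition, after their values were seen. A few genes that the rule names are not reported here. Alternatives changed the scaling, the filter, the test, the tumors in the fit, the block and the minimum fold. Relations between scores were tested with 100000 permutations. Figures were drawn with matplotlib 3.10.9 from tables made in Python 3.11.15.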

Additional observations from a re-analysis of the deposited data

Results flagged for a closer look

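For each gene named above and for each list score shown, the gap between the highest or the lowest of the 10 tumors of a group and the next tumor was divided by the range of the group, on the log2 CPM scale, and a ratio above Dixon's 95% critical value for 10 samples was taken as a tumor far from the others. This was so in 94 of 434 groups of tumors. Chance gives about 1 in 20 for independent, normally distributed values, but these groups share the same 20 libraries, so that share is no benchmark here. GFP tumor 7 alone gave 41 of the low values and 21 of the high ones. The ratio stands in parentheses after each gene or list.

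GFP tumor 7 was far below the other GFP tumors for resident macrophage genes (0.468), monocyte genes (0.577), fibrillar collagen and matrix genes (0.523), keratinocyte genes (0.648), Alox15 (0.653), Atf3 (0.597), C3 (0.527), Casp4 (0.49), Ccl2 (0.473), Ccl8 (0.521) and Cd300e (0.584). It was likewise the low tumor for Cdh1 (0.645), Cfb (0.693), Csf1r (0.526), Ctss (0.467), Egfr (0.762), Fasl (0.507), Foxp3 (0.486), Il1b (0.562), Il1rl1 (0.586), Il2ra (0.779) and Il33 (0.517). Low values in the same tumor were also found for Irf8 (0.476), Klra8 (0.535), Kynu (0.553), Lair1 (0.507), Maf (0.784), Meg3 (0.53), Mfap4 (0.521), Mmp13 (0.532), Ms4a2 (0.629), Ms4a4b (0.633) and Nos2 (0.645). The remaining genes low in GFP tumor 7 were Olfr56 (0.67), Postn (0.501), Ptprc (0.525), Sele (0.551), Selp (0.498), Siglech (0.481), Tek (0.585) and Xcl1 (0.593). The same tumor was far above the other GFP tumors for melanocyte genes (0.506), DNA replication genes (0.547), Atp5o (0.544), Cdk1 (0.657), Col9a1 (0.52), Cox5a (0.604) and Dhrs2 (0.517). It also stood highest for Gjb1 (0.611), Gsdme (0.669), Insig1 (0.47), Mrpl44 (0.505), Mthfd2 (0.721), Nme1 (0.583) and Rlbp1 (0.572). High values in GFP tumor 7 were further found for Rps6 (0.592), Rrm2 (0.496), Sdhb (0.568), Slc24a5 (0.527), Slc45a2 (0.669), Tph2 (0.597) and Tyrp1 (0.512).

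GFP tumor 8 was far above the other GFP tumors for Cd4 (0.512) and Mmp9 (0.508). IFNA9 tumor 5 was far above the other IFNA9 tumors for oxidative phosphorylation genes (0.651), Acta1 (0.534), Atp5o (0.523), Gjb1 (0.467), Sdhb (0.544) and Uqcr11 (0.477). IFNA9 tumor 5 was far below the other IFNA9 tumors for Ccl2 (0.553), Cfb (0.476), Il1rl1 (0.564), Kmo (0.608), Mmp13 (0.48) and Ptgs2 (0.467). IFNA9 tumor 10 was far above the other IFNA9 tumors for F3 (0.697), Gsdmc (0.484), Hk1 (0.535), Mitf (0.549) and Tyrp1 (0.507). IFNA9 tumor 10 was far below the other IFNA9 tumors for keratinocyte genes (0.687), Aqp1 (0.52), Cdh1 (0.718), Cpa3 (0.666), Fmod (0.538), H2-Aa (0.578), Mfap4 (0.493) and Sox9 (0.513).

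Single values far from the others were found in a few more tumors. Icam2 (0.476) was highest in GFP tumor 3. Pold3 (0.48) was lowest in GFP tumor 3. Cngb3 (0.509) was highest in GFP tumor 5. Cdkn1a (0.478) was lowest in GFP tumor 10. Socs3 (0.501) was highest in IFNA9 tumor 8. With GFP tumor 7 left out, the counts of DEGs were 3784 higher and 4016 lower.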

How the results depend on the processing

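Counts of DEGs moved by less than 1.5 times under each scaling, filter, test and set of tumors tried. DESeq2 gave 4080 genes higher and 4376 lower, library totals 4323 genes higher and 3372 lower, and a fit of all 30 tumors 4331 genes higher and 4496 lower. Scaling by library totals moved the median of all genes by 0.0872 on the log2 scale. Asking for at least 2-fold left 1197 higher and 726 lower, which follows from the fewer genes that a minimum fold admits. With each tumor left out in turn, DEGs ran from 3539 to 4074 higher and from 3791 to 4370 lower, and genes without overlap from 712 to 1043 higher and from 530 to 877 lower, the last with 807 without IFNA9 tumor 5 and 877 without IFNA9 tumor 10.

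Replicate numbers did not pair the tumors: deviations of same-numbered tumors correlated at -0.204 to 0.309 with a median of -0.0973, 2 of 10 pairs were over 0.1 and 2 tumors correlated best with their own number. The replicate block gave 3788 genes higher and 3830 lower, with 7341 of the DEGs called the same way.

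Of 53 list medians 45 kept their sign in every alternative, and 1, of CDK inhibitor and p53 genes, moved by more than the spread between tumors, to 0.167 under library totals. Of 204 named genes 168 kept direction and call in every alternative. The list medians that changed sign lay between -0.102 and 0.101, 5 of them changed with GFP tumor 7 left out, and the genes that changed sign were not DEGs. With each tumor left out in turn the values ran for resident macrophage genes from -0.16 to 0.0300, for neutrophil genes from -0.0160 to 0.22, for fibrillar collagen and matrix genes from -0.0244 to 0.12, for fibroblast and pericyte genes from -0.0217 to 0.17, for matrix protease genes from -0.0200 to 0.13, for Schwann cell and nerve genes from -0.0705 to 0.10, for TGF-beta, WNT and Notch genes from -0.0546 to 0.17, for C1qa from -0.11 to 0.0886, for Cenpe from -0.14 to 0.0574, for Cenpf from -0.0982 to 0.0924, for Col1a1 from -0.0450 to 0.17, for Csf1r from -0.16 to 0.0642, for Ifnar1 from -0.0671 to 0.0139, for Igkc from -1.22 to 0.0765, for Il4 from -0.24 to 0.0117, for Il6 from -0.15 to 0.12, for Kdr from -0.0822 to 0.0575, for Mki67 from -0.0351 to 0.12, for Mrc1 from -0.15 to 0.0441, for Ptgs2 from -0.0532 to 0.16, for Vegfa from -0.10 to 0.10, for Vsig4 from -0.25 to 0.0916. Under library totals, resident macrophage genes 0.0291, lysosome genes 0.00232, C1qa 0.0793, Cenpe 0.0446, Csf1r 0.0341, Ifnar1 0.0550, Il4 0.00851, Mrc1 0.0370, Stat6 0.0411, Vsig4 0.0291 and Vwf 0.00719. Under the replicate block, resident macrophage genes 0.0210, C1qa 0.0995, Cenpf -0.0100, Csf1r 0.0533 and Mrc1 0.0210. Under edgeR's filterByExpr, Schwann cell and nerve genes -0.00523, Cenpf -0.0104, Kdr -0.0239 and Vegfa -0.0179. Under no filter, Kdr -0.00729 and Vegfa -0.00115. Of 162 named DEGs 153 were called the same way with each tumor left out. The cause of these changes was not tested. Genes of a few CPM have the least certain changes at a depth of 14598517 to 18669856 counts.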

Other observations

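Receptors and signalling genes of the cytokine pathways moved unevenly. Of 28 tested genes of interferon and cytokine receptors 14 were higher and 3 lower (16 and 1 with scaling by library totals), with a median log2 fold change of 0.35. Ifnar1, a chain of the type I interferon receptor, measured 69.9 to 107 CPM (median 89.9) in GFP and 69.7 to 100.3 CPM (median 90.3) in IFNA9 tumors. The groups overlapped (-0.02 ± 0.08), and Stat3 (0.10 ± 0.08) and Stat6 (-0.04 ± 0.08) were not DEGs. Il10ra, the interleukin-10 receptor chain of leukocytes, rose by 1.65 ± 0.18 and Stat4, which carries interleukin-12 signals, by 1.65 ± 0.23. Usp18, an ISG that holds back signalling from Ifnar2, rose by 2.99 ± 0.20.

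Genes of plasmacytoid DCs were divided. Of 13 tested members 5 were higher and none lower, and Siglech, a surface marker of these cells, was not a DEG (0.72 ± 0.37). Pacsin1 rose by 2.65 ± 0.32 without overlap, and the inhibitory receptor Lair1 by 2.12 ± 0.22. Of 9 tested genes of mast cells, basophils and eosinophils 3 were higher, the eosinophil genes Ccr3 (1.63 ± 0.37) and Siglecf, at 0 to 0.863 CPM (median 0.582) in GFP and 0.48 to 2.64 CPM (median 1.43) in IFNA9 tumors, which passed the minimum of 10 counts through the IFNA9 tumors alone, and the Fc receptor chain Ms4a2, while Cpa3, a mast cell protease, was not a DEG (-0.33 ± 0.21) until the fit left out GFP tumor 7 (-0.43). Without GFP tumor 7 3 of the 9 were higher and 2 lower.

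Of 20 tested genes of dedifferentiated melanoma and the neural crest 8 were higher and 4 lower. Sox9 rose by 0.65 ± 0.21 and the receptor Egfr by 0.62 ± 0.22, while Ngfr, the neural crest receptor, was not a DEG (0.79 ± 0.47) until the fit left out GFP tumor 3 (1.43). Aqp1, a water channel also made by endothelium, fell with -1.49 ± 0.21 without overlap.

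Of 13 tested genes of kynurenine, arginine and NAD metabolism 5 were higher and 2 lower. Kynu, which cleaves kynurenine, rose by 1.71 ± 0.35 and Kmo, which oxidizes it, by 0.98 ± 0.20. Cd38, an enzyme that consumes NAD, fell with -0.82 ± 0.15. Of 17 tested matrix protease genes 6 were higher and 3 lower (5 and 5 without GFP tumor 7, and 6 and 1 with scaling by library totals), with the collagenase Mmp13 at 1.33 ± 0.30 and the gelatinase Mmp9 at -0.84 ± 0.33, a call lost when any 1 of 4 tumors was left out (-0.33 to -0.81). Of 27 tested genes of TGF-β, WNT and Notch 5 were higher and 4 lower, with Tgfb1 at 0.10 ± 0.16, and of 25 genes of fibroblasts and pericytes 4 were higher and 5 lower, with Pdgfra, a receptor of fibroblasts, at 0.56 ± 0.22, a call lost when any 1 of 10 tumors was left out (0.44 to 0.56).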
